A study of Rattus norvegicus with 11 samples.

Results

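The lung epithelial lineage transcription factors Nkx2-1, Cebpa, Cebpb, Cebpd, Foxa2, Gata6 and Foxj1 were followed in rat alveolar epithelial cells. Members were all probe sets annotated to exactly 1 gene with 1 of these symbols. The rule reads symbols alone, but the genes were picked with earlier results of these data known. The rule found 14 of the 8799 probe sets on the array, covering all 7 genes of the 4736 that had a probe set of their own. Of the 8740 probe sets tested, 7006 carried exactly 1 gene, and 0 named a member beside another gene. Nkx2-1, Cebpa and Cebpb each had a pair of probe sets, Cebpd and Gata6 had 3, and Foxa2 and Foxj1 had 1.

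Total RNA was measured on 11 Affymetrix arrays, as 1 log2 value per probe set and array. The groups were 4 arrays of freshly isolated alveolar type I (TI) cells, titled day 0, 4 of freshly isolated type II (TII) cells, also titled day 0, and 3 of cultured TII cells, titled day 7. The titles and descriptions set the groups, since the source field gives TI cells for all 11 arrays. The sources used here give no strain, age, number of animals or culture conditions. Separate animals are not stated behind the arrays of a group, so p-values measure only the spread between these arrays, which may be technical.

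TI cells are the flat cells through which gas is exchanged, and TII cells are the cuboidal cells that make surfactant and can give rise to TI cells. NKX2-1 is a homeodomain protein that binds the promoters of surfactant and club cell secretory genes, and it is needed to form the lung. The forkhead protein FOXA2, the zinc finger protein GATA6 and the leucine zipper proteins of the C/EBP family bind many of the same genes and are known to act with it. FOXJ1 is the forkhead protein that drives the formation of motile cilia, and in the lung it marks the ciliated cells of the airways, not the alveolus.

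Promoters were read from RefSeq (build GRCr8), each covering 250 bases before to 50 bases after the annotated start. The reference table held promoters for Nkx2-1, Cebpa, Cebpb, Foxa2 and Gata6 among the members. The 3 secretory genes shown first are classical targets of these factors whose levels are given after those of the members, and Nkx2-1 is the member that fell furthest in culture. Capitals mark letters matching a motif on either strand: GCNCTNNAG (NKX2-1 consensus), CTCAAG (NKX2-1 core, which can overlap the consensus), TTNNGNAA (C/EBP) or TGTTTNC (forkhead). AGATAA and TGATAA, for GATA factors, were searched as well.
Sftpb, chr4:105917338-105917637, plus strand: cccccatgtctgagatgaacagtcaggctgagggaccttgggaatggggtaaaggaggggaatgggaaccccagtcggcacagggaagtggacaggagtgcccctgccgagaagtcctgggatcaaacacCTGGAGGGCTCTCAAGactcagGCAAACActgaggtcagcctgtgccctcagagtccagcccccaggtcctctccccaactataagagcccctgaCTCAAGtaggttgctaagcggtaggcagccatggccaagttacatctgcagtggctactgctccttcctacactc
Sftpa1, chr16:17042014-17042313, plus strand: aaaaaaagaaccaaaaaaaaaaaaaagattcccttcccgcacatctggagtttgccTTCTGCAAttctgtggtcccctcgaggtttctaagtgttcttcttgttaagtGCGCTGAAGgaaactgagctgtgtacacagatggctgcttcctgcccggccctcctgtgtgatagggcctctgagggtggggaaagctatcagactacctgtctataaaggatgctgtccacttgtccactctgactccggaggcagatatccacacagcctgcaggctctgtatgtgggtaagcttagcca
Scgb1a1, chr1:215409637-215409936, minus strand: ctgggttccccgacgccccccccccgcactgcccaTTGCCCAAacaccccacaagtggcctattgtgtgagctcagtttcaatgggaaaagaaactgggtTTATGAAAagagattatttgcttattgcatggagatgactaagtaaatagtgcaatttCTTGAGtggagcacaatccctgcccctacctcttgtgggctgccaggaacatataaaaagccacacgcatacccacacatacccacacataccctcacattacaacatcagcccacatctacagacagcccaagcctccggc
Nkx2-1, chr6:79734818-79735117, minus strand: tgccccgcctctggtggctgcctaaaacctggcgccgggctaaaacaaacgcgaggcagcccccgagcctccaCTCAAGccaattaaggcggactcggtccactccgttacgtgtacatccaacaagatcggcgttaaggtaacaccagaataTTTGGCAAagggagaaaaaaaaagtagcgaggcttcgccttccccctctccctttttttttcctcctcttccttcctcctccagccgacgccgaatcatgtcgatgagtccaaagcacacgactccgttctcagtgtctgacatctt

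The surfactant protein B promoter held the most matches of the 9 promoters examined. Its NKX2-1 consensus matches began at -120, counted in bases from the start, on the minus strand of the gene and at -113 on the plus strand. The core CTCAAG lay at -110, inside the second of these, and again at -25, and the forkhead core lay at -98 on the minus strand. The surfactant protein A promoter held the NKX2-1 consensus at -142 and the C/EBP letters at -194. The promoter of Scgb1a1, the club cell secretory protein, held the NKX2-1 core at -92 on the minus strand and C/EBP letters at -215 and -150. The promoter of Nkx2-1 held the core at -177 and C/EBP letters at -97. Foxa2 held C/EBP letters at -83, and Cebpa, Cebpb, Gata6 and Abca3 held no match of these motifs in the window. Such short motifs are common: of 33469 promoters of this length, 16.6% held GCNCTNNAG, 15.8% CTCAAG, 41.3% TTNNGNAA, 21.1% TGTTTNC, 11.6% AGATAA and 9.03% TGATAA. A match is a description of letters, not of binding.

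The labelled cell types were checked against their markers. Type I markers (7 genes measured) summed to 10963 to 11900 units of linear signal on fresh TI arrays, 1698 to 1890 on fresh TII arrays and 2200 to 3671 on cultured arrays. Type II markers (9 genes) summed to 37144 to 39156 on fresh TII and 3312 to 3514 on cultured arrays. Fresh TI arrays still held 5906 to 16634 units of type II signal, lowest on replicate 4. The part of this signal in the TI values of the members was not tested. In bulk RNA, fewer cells of a type and less RNA per cell cannot be told apart. Fibroblast and smooth muscle markers (18 genes) summed to 3933 to 5683 on fresh TI, 2482 to 2695 on fresh TII and 4870 to 5970 on cultured arrays. The 3' to 5' difference (log2) of the beta-actin control ran from 0.21 to 0.43 on fresh arrays and from -0.33 to -0.08 on cultured arrays. That of the GAPDH control ran from 0.41 to 0.69 on fresh TI, 0.47 to 0.57 on fresh TII and 0.30 to 0.45 on cultured arrays, so that TI and cultured arrays overlapped. The part of RNA quality in the changes in culture was not tested.

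Most members with a group difference were highest in fresh TII cells. Nkx2-1, Cebpa, Cebpd, Foxa2 and Foxj1 had at least 1 probe set lower in fresh TI than in fresh TII cells, and Nkx2-1, Cebpa, Cebpd and Foxj1 had at least 1 that fell in culture. Adjusted p-values come from limma with Benjamini-Hochberg adjustment over the 8740 probe sets, and those under 0.05 count as calls.

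Between fresh TI and fresh TII cells, 7 of the 14 member probe sets were called, 6 lower and 1 higher in TI. Of all probe sets tested, 54.7% were called, 20.4% lower and 34.3% higher, so the number called was near the background. Matching all arrays to a common median and standard deviation (matched spread) moved the split over all probe sets from 2996 higher and 1787 lower to 2252 and 2005, and left that of the members at 1 and 6. Groups did not overlap for 6 of the 14, against 50.7% of all. In culture, 5 of 14 were called, all lower (33.4% of all called, 14.3% lower and 19.1% higher), and groups did not overlap for 6 (43.3% of all). Between fresh TI and cultured TII cells, 6 of 14 were called, 4 lower and 2 higher in TI (59.9% of all called, 24.2% lower and 35.7% higher), and 5 did not overlap (57.3% of all). Matching the spread moved the last split over all probe sets from 3124 higher and 2111 lower to 2294 and 2323.

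Over the 14 probe sets the median log2 difference was -0.40 for TI against TII, -0.13 in culture and 0.052 for TI against cultured cells. Over all probe sets it was 0.125, -0.0105 and 0.131, and matching the spread brought these to 0.042, 0.0048 and 0.023. The differences below are as fitted, so those of fresh TI cells are to be read beside these medians. Array medians lay between 5.43 and 5.51, and the medians over all probe sets changed with the spread. They are therefore not a constant offset to be taken from each difference. The 3 comparisons share arrays: each group enters 2 of them.

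**Figure D1:**
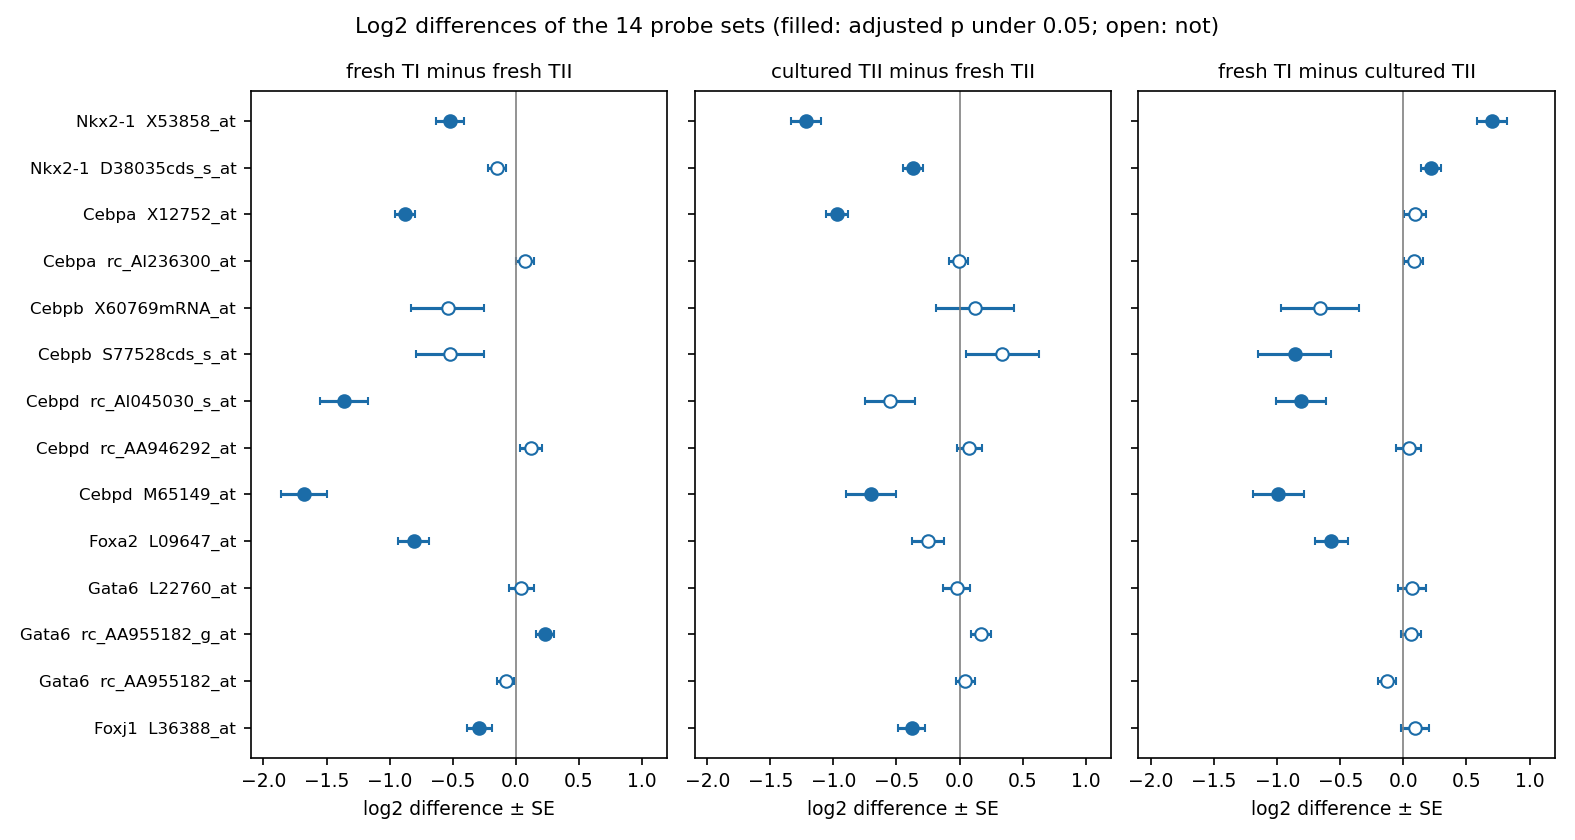
Log2 difference (x axis) of each member probe set (y axis) in the 3 comparisons, as points with the standard error of the limma fit as bars. Filled points are called at an adjusted p under 0.05. The probe sets of Cebpd and of Cebpa sit apart from each other, from -1.68 to 0.12 and from -0.88 to 0.075 for fresh TI minus fresh TII.

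Nkx2-1 (Entrez gene 25628) was highest in fresh TII, intermediate in fresh TI and lowest in cultured TII cells. The brighter probe set, X53858_at, read 9.06, 8.78, 8.53 and 8.59 in fresh TII replicates 1 to 4. It read 8.03, 8.29, 8.31 and 8.24 in fresh TI replicates 1 to 4, and 7.55, 7.51 and 7.50 in the cultured replicates. No group overlapped another. The level in TI was -0.52 ± 0.11 (SE) against TII, or 1.44-fold lower (adjusted p = 0.00165). It fell by 1.22 ± 0.12 in culture, or 2.33-fold (adjusted p = 2.72e-06), and TI stood 0.70 ± 0.12 above cultured cells (adjusted p = 0.00029). The TI to TII difference depended on the scaling of the arrays, at -0.24 (adjusted p = 0.0758) after quantile normalization and -0.39 (adjusted p = 0.00859) with matched spread.

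The cultured arrays were close together for this gene: their SD was 0.028 for X53858_at, and 94.2% of tested probe sets had at least that SD among them. Among fresh TII arrays the SD was 0.24, a spread reached by 3.67% of probe sets. The dimmer probe set, D38035cds_s_at, kept the order of the group means at smaller size. It read 6.31, 6.26, 6.08 and 6.23 in fresh TII, 6.13, 6.09, 5.93 and 6.13 in fresh TI, and 5.87, 5.84 and 5.85 in cultured cells. Fresh TI and fresh TII overlapped, at -0.15 ± 0.072 (adjusted p = 0.0892), while the cultured arrays lay below both. This TI to TII difference passed with median centring (-0.20, adjusted p = 0.0367), with array weights (-0.20, adjusted p = 0.0234) and without fresh TII replicate 3 (-0.20, adjusted p = 0.0405). It did not pass under the other alternatives. In culture D38035cds_s_at fell by 0.37 ± 0.078 (adjusted p = 0.00221). TI stood 0.22 ± 0.078 above cultured cells (adjusted p = 0.0293), a call lost without any 1 of cultured replicates 1, 2 and 3 or fresh TI replicates 1 and 4 (differences of 0.20 to 0.26 over all arrays left out). It was also lost with the arrays centred on their median (adjusted p = 0.0798), with array weights (adjusted p = 0.0726) and in a fit of the compared groups alone (adjusted p = 0.0529). Over the 11 arrays the pair correlated at r = 0.90, a description across arrays of 3 groups.

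**Figure D2:**
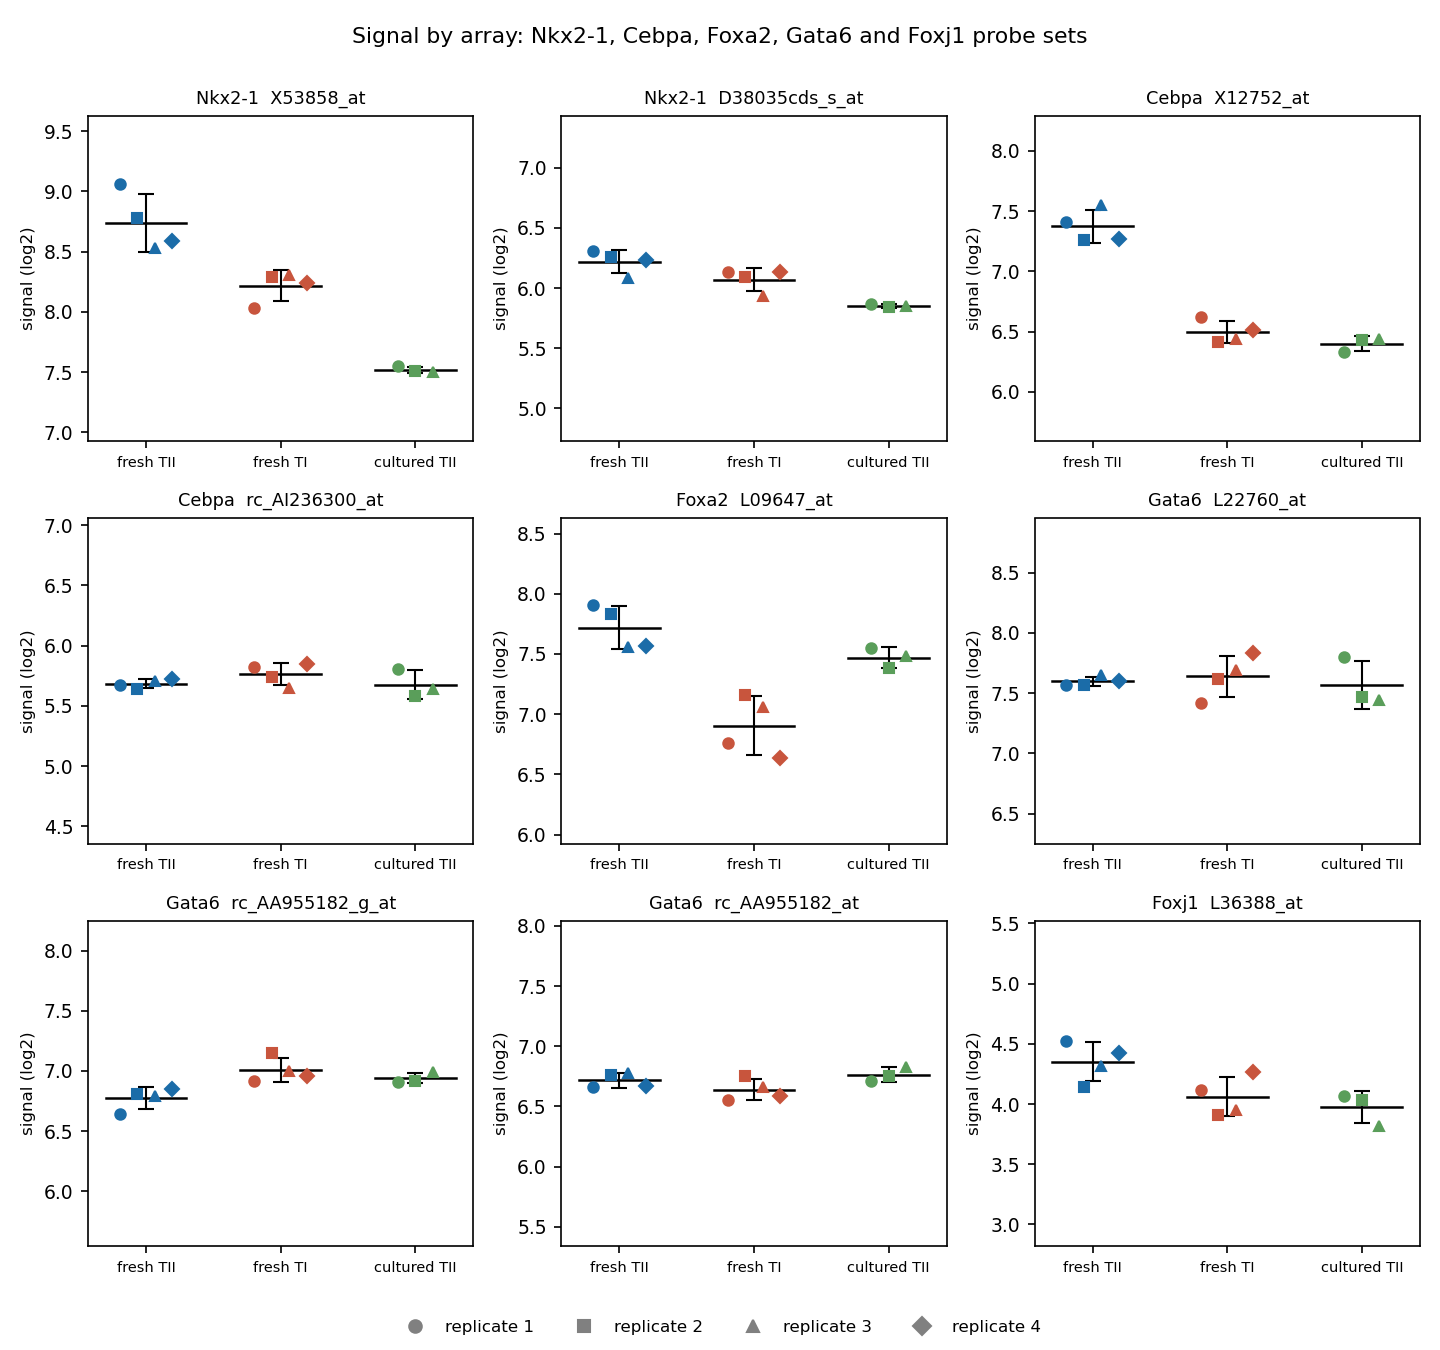
Log2 signal (y axis) of the probe sets of Nkx2-1, Cebpa, Foxa2, Gata6 and Foxj1 on each array, by group (x axis), with the group mean as a line and the SD as a bar; each panel spans the same number of log2 units. For Nkx2-1 X53858_at the 3 cultured arrays sit at 7.50 to 7.55, below the 4 fresh TI arrays at 8.03 to 8.31 and the 4 fresh TII arrays at 8.53 to 9.06.

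Cebpa (Entrez gene 24252) encodes C/EBP alpha, a regulator of differentiation and lipid metabolism that is needed for the maturation of TII cells. Its probe set X12752_at was highest on fresh TII arrays, which read 7.41, 7.26, 7.55 and 7.27. Fresh TI arrays read 6.62, 6.41, 6.44 and 6.51, and cultured arrays 6.33, 6.43 and 6.44. Both lay below every fresh TII array and overlapped each other. TI was lower by -0.88 ± 0.081, or 1.84-fold (adjusted p = 2.02e-06), and the level fell by 0.97 ± 0.087 in culture, or 1.96-fold (adjusted p = 1.46e-06). TI and cultured cells differed by 0.094 ± 0.087, which did not pass the test (adjusted p = 0.359).

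The other Cebpa probe set, rc_AI236300_at, did not show this pattern. It read 5.67, 5.64, 5.71 and 5.72 in fresh TII, 5.82, 5.74, 5.65 and 5.85 in fresh TI, and 5.81, 5.58 and 5.64 in cultured cells. All 3 groups overlapped, with differences of 0.075 ± 0.071 for TI against TII (adjusted p = 0.377), -0.0070 ± 0.077 in culture (adjusted p = 0.966) and 0.082 ± 0.077 for TI against cultured cells (adjusted p = 0.363). The difference between the probe sets of Cebpa was 0.95 for TI against TII (exact p = 0.0286, the lowest that 4 against 4 arrays allow) and 0.96 in culture (exact p = 0.0571, the lowest for 3 against 4), with an adjusted p of 0.109 for each. Their r over the 11 arrays was -0.18.

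Cebpb (Entrez gene 24253) encodes C/EBP beta, an activator that responds to cytokines and stress. It varied widely within groups. The brighter probe set, X60769mRNA_at, read 8.41, 8.06, 8.74 and 8.09 in fresh TII, 8.06, 8.05, 8.13 and 6.93 in fresh TI, and 7.86, 8.46 and 9.03 in cultured cells. S77528cds_s_at read 7.60, 7.42, 7.95 and 7.35, then 7.17, 7.36, 7.43 and 6.29, then 7.30, 7.95 and 8.51 in the same order. The pair was high and low on the same arrays (r = 0.98): fresh TI replicate 4 was lowest of all, and cultured replicate 3 was highest. All 3 groups overlapped on both probe sets.

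For TI against TII the differences of Cebpb were -0.54 ± 0.29 (adjusted p = 0.129) and -0.52 ± 0.27 (adjusted p = 0.118). Without fresh TI replicate 4 they were -0.25 (adjusted p = 0.385) and -0.26 (adjusted p = 0.349). In culture they were 0.12 ± 0.31 (adjusted p = 0.825) and 0.34 ± 0.29 (adjusted p = 0.443), and without cultured replicate 3 the first was -0.17. TI was lower than cultured cells on S77528cds_s_at alone, at -0.86 ± 0.29 (adjusted p = 0.0231), beside -0.66 ± 0.31 (adjusted p = 0.0822) on X60769mRNA_at. That call was lost without cultured replicate 3 (-0.57, adjusted p = 0.122), cultured replicate 2 (-0.84, adjusted p = 0.0597) or fresh TI replicate 4 (-0.60, adjusted p = 0.0511), and after quantile normalization (-0.70, adjusted p = 0.0621).

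The within-group SD of the pair was 0.58 and 0.52 among fresh TI arrays, reached by 1.12% and 1.5% of tested probe sets, where the median SD was 0.14. Among cultured arrays it was 0.59 and 0.60, reached by 1.62% and 1.44%, where the median SD was 0.10. Among fresh TII arrays X60769mRNA_at had an SD of 0.32, reached by 1.44% of probe sets.

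Cebpd (Entrez gene 25695) encodes C/EBP delta, which is induced by glucocorticoids and in the acute phase response. It had the largest TI to TII difference of the members. The probe set rc_AI045030_s_at read 7.76, 7.71, 7.66 and 7.61 in fresh TII and 6.39, 6.43, 6.39 and 6.09 in fresh TI. M65149_at read 7.47, 7.26, 7.18 and 7.07 in fresh TII and 5.49, 5.74, 5.51 and 5.51 in fresh TI. On both, every TI array lay over 1 log2 unit below every TII array. TI was lower by -1.36 ± 0.19, or 2.56-fold (adjusted p = 7.46e-05), on the former and by -1.68 ± 0.18, or 3.21-fold (adjusted p = 1.01e-05), on the latter.

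Cultured arrays spread widely between those levels. They read 6.57, 7.07 and 7.76 on rc_AI045030_s_at and 6.0, 6.51 and 7.14 on M65149_at. Replicate 1 stood near the TI arrays and replicate 3 among the TII arrays. The SD was 0.60 and 0.57, reached by 1.49% and 1.72% of tested probe sets. M65149_at fell by 0.70 ± 0.20 in culture (adjusted p = 0.0156), a call lost without cultured replicate 1 (-0.42, adjusted p = 0.067) or replicate 2 (-0.68, adjusted p = 0.0524). The difference of rc_AI045030_s_at, -0.55 ± 0.20, missed the threshold (adjusted p = 0.0521) and passed it without cultured replicate 3 (-0.87, adjusted p = 0.000345). TI was lower than cultured cells on both, by -0.81 ± 0.20 (adjusted p = 0.00461) and -0.99 ± 0.20 (adjusted p = 0.00114), with no overlap.

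Cebpb and Cebpd had the same order of the cultured arrays, replicate 1 lowest and replicate 3 highest, on every probe set. The range was narrow on rc_AA946292_at of Cebpd, at 6.79, 6.86 and 6.97. Cebpa X12752_at (6.33, 6.43 and 6.44) and both rc_AA955182 probe sets of Gata6 shared the order, also over narrow ranges. The summed signal of 12 macrophage and leukocyte markers had this order too, at 1841, 3270 and 3800 units in cultured replicates 1, 2 and 3. Type II markers had it as well, at 3312, 3483 and 3514, and type I markers had the reverse, at 3671, 2617 and 2200. Among fresh TI arrays the macrophage and leukocyte sum was 1423, 1684, 1611 and 883, lowest on replicate 4, where Cebpb was lowest as well. Type II marker signal on fresh TI arrays was also lowest on replicate 4, at 5906 against 11304 to 16634 on the others. In culture 4 of the 12 markers rose and 2 fell. The chemokine gene Ccl2 rose by 3.09 ± 0.22 (adjusted p = 1.69e-07), Lgals3 by 2.38 ± 0.42 (adjusted p = 0.000574) and the Fc receptor gene Fcgr2b by 1.78 ± 0.38 (adjusted p = 0.00224), while the chemokine gene Ccl3 fell by 1.27 ± 0.36 (adjusted p = 0.0146). The pan-leukocyte gene Ptprc averaged 5.99 in TI, 5.56 in TII and 5.36 in cultured cells, a difference in culture of -0.19 ± 0.088 that did not pass the test (adjusted p = 0.119). The part of such cells in the values of Cebpb and Cebpd was not tested.

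The remaining Cebpd probe set, rc_AA946292_at, did not pass the test in any of the 3 comparisons. It read 6.64, 6.87, 6.83 and 6.86 in fresh TII, 6.89, 7.14, 6.88 and 6.75 in fresh TI, and 6.79, 6.86 and 6.97 in cultured cells. Its differences were 0.12 ± 0.090 (adjusted p = 0.278), 0.077 ± 0.097 (adjusted p = 0.631) and 0.041 ± 0.097 (adjusted p = 0.725). Against rc_AI045030_s_at it differed by 1.48 for TI against TII (exact p = 0.0286, adjusted p = 0.109), and its r over the 11 arrays was -0.19, where the other pair reached 0.99.

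**Figure D3:**
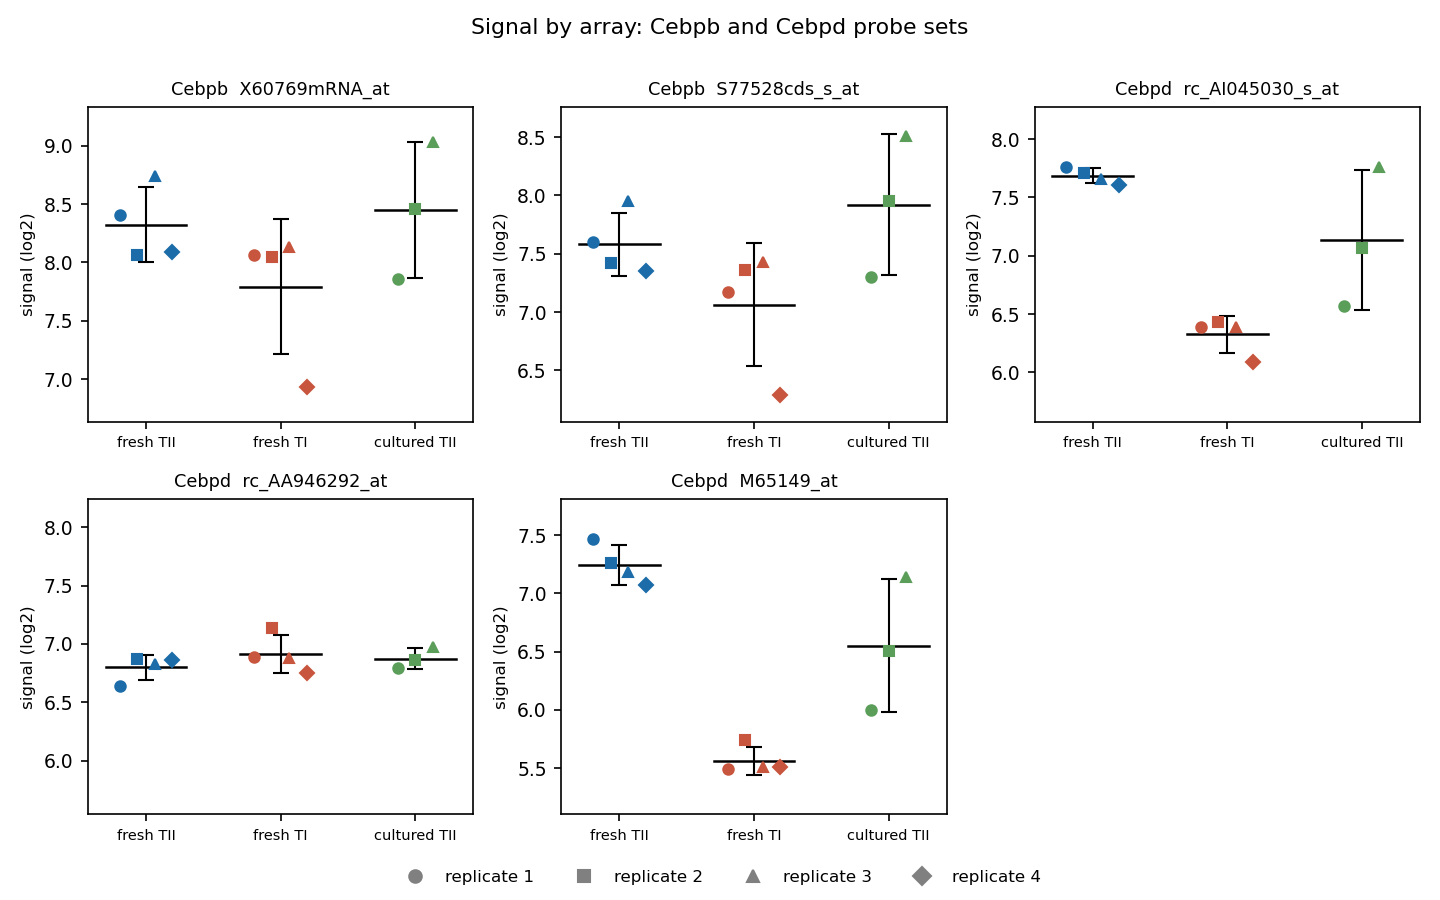
Log2 signal (y axis) of the 5 probe sets of Cebpb and Cebpd on each array, by group (x axis), with the group mean as a line and the SD as a bar; each panel spans the same number of log2 units. On rc_AI045030_s_at and M65149_at of Cebpd the fresh TI arrays sit below all others, and the cultured arrays run from 6.57 to 7.76 and from 6.0 to 7.14, while all 11 arrays of rc_AA946292_at lie between 6.64 and 7.14.

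Foxa2 (Entrez gene 25099) encodes a forkhead factor that opens chromatin at endoderm genes. It was lower in fresh TI cells than in both other groups. Its probe set, L09647_at, read 7.91, 7.83, 7.56 and 7.57 in fresh TII, 7.55, 7.38 and 7.48 in cultured TII, and 6.76, 7.16, 7.06 and 6.64 in fresh TI. The groups did not overlap, although cultured replicate 1, at 7.55, lay next to the lowest fresh TII array, at 7.56. TI was lower than TII by -0.81 ± 0.12, or 1.75-fold (adjusted p = 0.000134), and lower than cultured cells by -0.57 ± 0.13, or 1.48-fold (adjusted p = 0.00258). The difference in culture, -0.25 ± 0.13, did not pass the test (adjusted p = 0.18).

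Gata6 (Entrez gene 29300), a regulator of endoderm and of the distal lung epithelium, had small differences. The brightest probe set, L22760_at, read 7.57, 7.57, 7.65 and 7.60 in fresh TII, 7.42, 7.62, 7.69 and 7.83 in fresh TI, and 7.80, 7.47 and 7.44 in cultured cells. The groups overlapped throughout, with differences of 0.045 ± 0.098 (adjusted p = 0.706), -0.024 ± 0.11 (adjusted p = 0.907) and 0.069 ± 0.11 (adjusted p = 0.583). The TII arrays lay within 0.09 of each other.

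The other Gata6 probe sets carry the same sequence identifier, rc_AA955182, and did not move together (r = 0.09). The one ending in g_at read 6.64, 6.81, 6.79 and 6.85 in fresh TII, 6.92, 7.15, 7.00 and 6.96 in fresh TI, and 6.91, 6.92 and 6.99 in cultured cells. It was higher in TI by 0.23 ± 0.072 (adjusted p = 0.0178), with no overlap, a call lost without fresh TII replicate 1 (0.19, adjusted p = 0.0601). Relative to the median of all probe sets this difference was 0.10. The call held with quantile normalization (0.29, adjusted p = 0.00457) and with matched spread (0.27, adjusted p = 0.00621). It was closer to the threshold with median centring (0.19, adjusted p = 0.0467). The other, rc_AA955182_at, read 6.66, 6.76, 6.78 and 6.67 in fresh TII, 6.55, 6.75, 6.66 and 6.59 in fresh TI, and 6.71, 6.75 and 6.83 in cultured cells, at -0.081 ± 0.067 for TI against TII (adjusted p = 0.314). In culture these 2 stood at 0.17 ± 0.078 (adjusted p = 0.13) and 0.047 ± 0.073 (adjusted p = 0.704). For TI against cultured cells they stood at 0.063 ± 0.078 (adjusted p = 0.49) and -0.13 ± 0.073 (adjusted p = 0.142).

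Foxj1 (Entrez gene 116557) was dim, at a mean of 4.14 where the median of all tested signals was 5.47. Its probe set, L36388_at, read 4.52, 4.14, 4.32 and 4.42 in fresh TII, 4.12, 3.91, 3.95 and 4.27 in fresh TI, and 4.07, 4.03 and 3.82 in cultured cells. TI was lower by -0.29 ± 0.10 (adjusted p = 0.033), with overlapping arrays, and the level fell by 0.38 ± 0.11 in culture (adjusted p = 0.019) without overlap. The first call was lost without any 1 of fresh TII replicates 1, 3 and 4 or fresh TI replicates 2 and 3, where the difference lay between -0.30 and -0.23. It held under the other scalings, at -0.41 (adjusted p = 0.00486) with quantile normalization, -0.41 (adjusted p = 0.00422) with matched spread and -0.33 (adjusted p = 0.0181) with median centring. The second was lost without fresh TII replicate 1 (-0.32, adjusted p = 0.0571), fresh TII replicate 4 (-0.35, adjusted p = 0.0528) or cultured replicate 3 (-0.30, adjusted p = 0.0892). TI and cultured cells differed by 0.090 ± 0.11 (adjusted p = 0.499), and the sign turned with quantile normalization, matched spread and array weights.

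Markers of ciliated cells gave a low signal in every group. The 8 measured genes summed to 250 to 299 units in fresh TII, 231 to 272 in fresh TI and 212 to 226 in cultured cells. For TI against TII, 2 of 8 were lower and 2 higher, with a median of 0.097, and under each of the 3 other scalings 2 were lower and 1 higher. Spa17 was lower by -1.20 ± 0.14 (adjusted p = 2.31e-05) and Rsph1, a protein of the ciliary radial spoke, by -0.62 ± 0.13 (adjusted p = 0.00141). The dynein heavy chain genes Dnah9, at 0.33 ± 0.083 (adjusted p = 0.0058), and Dnah1, at 0.25 ± 0.092 (adjusted p = 0.0336), were higher. In culture 3 of 8 fell, among them Spa17, which fell by 1.19 ± 0.16 (adjusted p = 4.78e-05), and Rsph1, which fell by 0.77 ± 0.14 (adjusted p = 0.000593), and 0 rose. Club and secretory airway markers (5 genes) summed to 4267 to 5114 units in fresh TII, against 545 to 583 in TI and 480 to 743 in culture. By gene the list was split, with 3 lower and 2 higher in TI than in TII. The part of airway cells in the Foxj1 and other fresh TII values was not tested.

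Probe sets of 1 gene were compared in 21 exact permutation tests (two-sided) over 7 pairs, each of the brightest probe set with another of that gene. Of these, 3 reached an exact p of 0.0286, and 0 of 21 passed after adjustment, where the lowest adjusted p was 0.109. By size, the pairs differed most for Cebpd, at 1.48, and Cebpa, at 0.96, and Nkx2-1 differed by 0.85 in culture, where both probe sets fell. The Cebpb pair differed by 0.015 to 0.22 in size. With 3 or 4 arrays a group, no outcome of these 21 tests could pass the threshold after adjustment.

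The brightest probe sets of the members followed different courses over the 11 arrays. As a description over arrays that share 3 groups, r was 0.85 for Cebpd with Foxa2, 0.79 for Nkx2-1 with Cebpa, 0.78 for Cebpa with Foxj1, 0.72 for Cebpa with Cebpd, and 0.70 for both Cebpb with Cebpd and Nkx2-1 with Foxj1. Nkx2-1 with Foxa2 stood at 0.32, and cultured cells were low for the former and near fresh TII for the latter. The lowest values were -0.67 for Cebpb with Gata6 and -0.45 for Cebpd with Gata6, and Nkx2-1 with Cebpb stood at -0.12.

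The genes most like each member were sought among 1083 probe sets of 1 gene whose group means spanned at least 1 log2 unit, by Pearson r to the member's brightest probe set over the 11 arrays. Nkx2-1 was most like Gde1 (0.98), Rbmx (0.97) and Zfp36 (0.96). Cebpa was most like Cited2 (0.99), Cyp2a3 (0.99) and Slit3 (0.98). Cyp2a3, a cytochrome P450, averaged 8.48 in fresh TII, 5.80 in fresh TI and 5.43 in cultured cells. Cebpd was most like Lcn2 (0.97), the secreted siderophore-binding protein lipocalin 2, which averaged 9.98 in fresh TII, 7.38 in cultured and 5.71 in fresh TI cells, and like Ckb (0.97) and P2ry2 (0.97). Foxa2 was most like Celf1, Hadhb and Btg1 (0.97 each), and Foxj1 most like Hdc (0.94), Dmbt1 (0.88) and Gsta3 (0.87). Cebpb reached 0.83 with Rps4x-ps9 and Ptgfrn and 0.80 with Glul. For Gata6 the highest values were 0.53 with Pmp22, 0.50 with Prdx6 and 0.44 with Krt19.

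Surfactant and secretory genes that these factors are known to regulate were lower in TI than in TII cells, and most fell in culture. For TI against TII, 7 of 7 measured genes were lower, with a median of -1.81, where the median over 4736 genes was 0.11. With quantile normalization or matched spread 6 of the 7 were. In culture 6 of 7 fell and 1 rose, with a median of -4.67 (-0.0052 over all genes). Sftpb was lower in TI by -3.27 ± 0.30 (adjusted p = 1.88e-06) and fell by 5.58 ± 0.32 in culture (adjusted p = 2.25e-08). Sftpa1 was lower in TI by -3.21 ± 0.47 (adjusted p = 0.00013) and fell by 6.42 ± 0.51 in culture (adjusted p = 4.84e-07). The club cell gene Scgb1a1, from the airway list, was lower in TI by -3.31 ± 0.13 (adjusted p = 1.01e-09) and fell by 2.62 ± 0.14 in culture (adjusted p = 1.31e-08). Sftpc was lower in TI by -1.19 ± 0.29 (adjusted p = 0.0045) and fell by 7.97 ± 0.31 in culture (adjusted p = 6.73e-10). The gene that rose in culture was the cathepsin Ctsh, by 0.72 ± 0.091 (adjusted p = 3.42e-05). These lists and the members were chosen with results of these data known, so the direction of this list is no independent support.

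Of 6 other C/EBP family members and leucine zipper partners, 2 were lower and 0 higher in TI than in TII, with a median of -0.16. They were Ddit3, the stress-induced C/EBP relative CHOP, at -1.42 ± 0.12 (adjusted p = 9.71e-07), and the circadian factor Dbp, at -1.16 ± 0.24 (adjusted p = 0.00149). With quantile normalization or matched spread, 3 were lower and 2 higher. In culture 3 fell and 1 rose, with a median of -0.28: Dbp fell by 1.33 ± 0.26 (adjusted p = 0.00111), Ddit3 fell by 1.13 ± 0.13 (adjusted p = 1.51e-05) and Tef fell by 0.45 ± 0.072 (adjusted p = 0.000258), while Cebpg rose by 0.47 ± 0.12 (adjusted p = 0.00971). Dbp averaged 7.79 in fresh TII, 6.62 in TI and 6.45 in cultured cells, and Ddit3 averaged 7.26, 5.84 and 6.13. Neither passed the test between TI and cultured cells (adjusted p = 0.574 and 0.0748). For TI against cultured cells 3 were higher and 1 lower, with a median of 0.18.

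Of 16 other forkhead, GATA and NK homeobox genes, 5 were higher and 1 lower in TI than in TII, with a median of 0.12, beside 0.11 over all genes. Median centring gave 4 higher and 2 lower, and matched spread 4 and 3. The lower gene was Foxq1, a forkhead factor, at -1.42 ± 0.15 (adjusted p = 6.78e-06). In culture 1 rose and 1 fell, with a median of -0.0067: Foxq1 rose by 1.0 ± 0.16 (adjusted p = 0.000283), and Foxa1, the close relative of Foxa2, fell by 0.23 ± 0.077 (adjusted p = 0.0327) at a dim mean of 2.94 to 3.30, a call absent with quantile normalization or matched spread. Foxq1 thus averaged 6.07 in TI, 7.49 in TII and 8.48 in cultured cells. Against cultured cells it was lower in TI by -2.42 ± 0.16 (adjusted p = 1.17e-07), where 5 of the 16 were higher and 1 lower, with a median of 0.16.

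Of 31 other regulators of the lung epithelium, 13 were lower and 5 higher in TI than in TII, with a median of 0.013, which was -0.010 after quantile normalization. In culture 16 fell and 5 rose, with a median of -0.22. Between TI and cultured cells 14 were higher and 4 lower in TI, with a median of 0.19. That last split was 14 and 7 with quantile normalization or matched spread, and 10 and 6 with median centring. Id2, an inhibitor of basic helix-loop-helix factors, was lower in TI by -2.23 ± 0.31 (adjusted p = 7.45e-05) and fell by 1.83 ± 0.33 in culture (adjusted p = 0.000695). The Kruppel-like factor Klf6 was lower in TI by -1.97 ± 0.11 (adjusted p = 2.08e-08) and fell by 2.50 ± 0.12 in culture (adjusted p = 4.25e-09). Klf4 was lower in TI by -1.64 ± 0.11 (adjusted p = 1.53e-07) and fell by 2.76 ± 0.12 in culture (adjusted p = 2.18e-09), which gave it the order of Nkx2-1, with means of 8.0 in TII, 6.36 in TI and 5.24 in cultured cells. Klf9 had that order as well, at 7.52, 6.48 and 5.99. These 4 genes were named by the size of their called differences. In size their differences exceeded those of the Nkx2-1 and Cebpa probe sets in the same comparison. That follows in part from how the 4 were picked, and it was not tested.

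**Figure D4:**
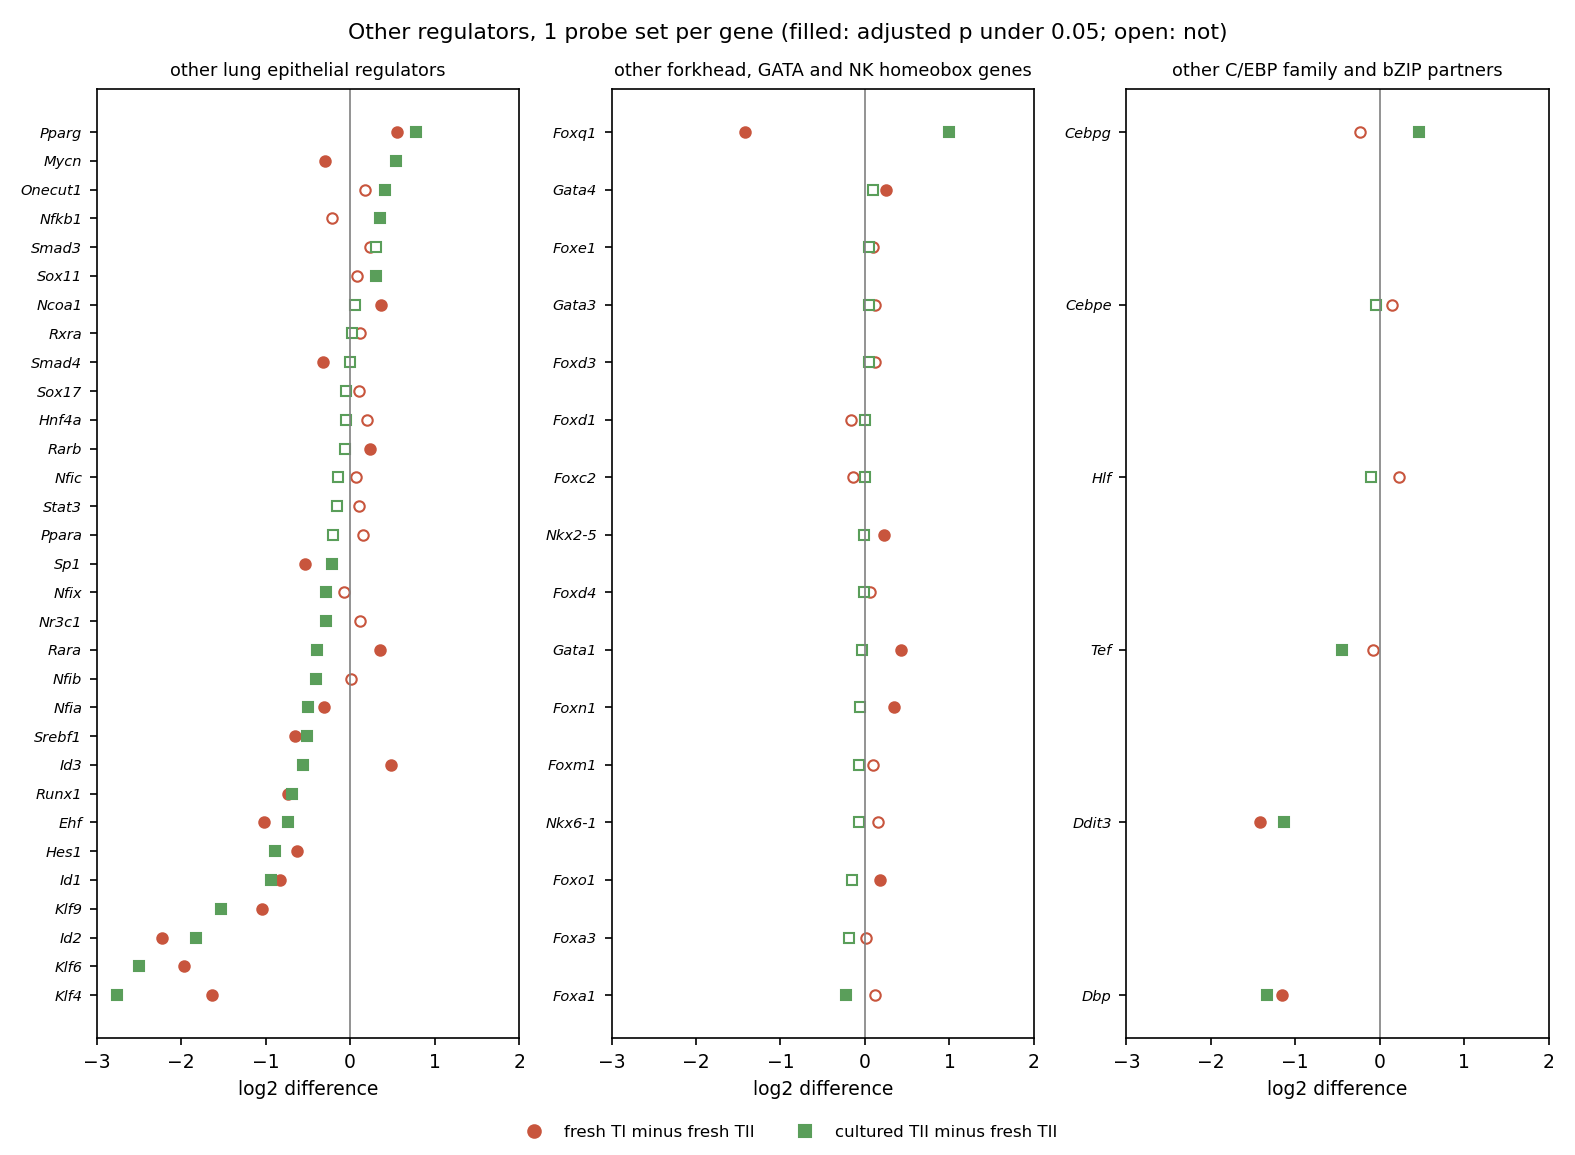
Log2 difference (x axis) of other transcription factors of the lists (y axis) for fresh TI minus fresh TII cells (circles) and cultured minus fresh TII cells (squares); filled symbols are called at an adjusted p under 0.05. Klf4, Klf6, Klf9 and Id2 lie below -1 in both comparisons, while Foxq1 lies at -1.42 in TI and at 1.0 in culture.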

How the data were processed

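Log2 values deposited by the authors were the starting point, with 1 for each array and probe set. The sources used here do not give the summarisation, background correction or normalization behind them. Base 2 was inferred from the range of 1.37 to 13.16. Array medians lay between 5.43 and 5.51, so the values were used as deposited. After 59 control probe sets had been set aside, 8740 were tested without a signal filter.

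Group means of the 11 arrays were fitted together in limma 3.58.1 under R 4.3.3 (lmFit and eBayes, two-sided). Benjamini-Hochberg adjustment ran over all 8740 probe sets, with calls at adjusted p-values under 0.05. Differences carry the standard error of the fit, over 4 arrays in either fresh group and 3 in the cultured one, a number that limits their precision. The fit was tested on simulated data with 200 of 8740 probe sets changed, far fewer than were called in the real data. It recovered 74.1% to 81.8% of 1.5-fold changes and 93.5% to 97.9% of 2-fold changes. False calls were 19 of 193 for TI against TII, 13 of 193 in culture and 6 of 172 for TI against cultured cells.

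Probe sets of 1 gene were compared by exact permutation tests (scipy 1.17.1) of the per-array difference from the brightest one. Every member probe set was named. For 13 gene lists, the brightest probe set stood for a gene, and up to 4 called genes a list were named by size, with all measured surfactant and C/EBP genes allowed. Fcgr2b, Ptprc, Lgals3, Ccl2 and the ciliated genes are named as markers. The members and lists were chosen with earlier results of these data known. Alternatives were 3 scalings, filters on dim probe sets, an intensity trend, a robust fit, 2-group fits, weighted arrays, a block for replicate numbers, a limit of 0.01 on the adjusted p and leaving out each array.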

Additional observations from a re-analysis of the deposited data

Results flagged for a closer look

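In 28 groups of 4 arrays, 1 array was compared with the others by its gap to the nearest one over the range of the group, with Dixon's critical value as the limit, which chance passes in about 1 of 20 groups. It stood apart in 3 of the 28. Cebpb X60769mRNA_at read 6.93 in fresh TI replicate 4, where the other fresh TI arrays read 8.05 to 8.13 (ratio 0.94). Cebpd rc_AI045030_s_at read 6.09 in that same array, where the others read 6.39 to 6.43 (ratio 0.88). Cebpd M65149_at read 5.74 in fresh TI replicate 2, where the others read 5.49 to 5.51 (ratio 0.91). Groups of 3 cultured arrays were not tested this way.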

How the results depend on the processing

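The 42 single comparisons (14 probe sets in 3 comparisons, 18 of them called) were repeated under 22 alternatives, which gave 918 values; Foxj1 has none under the 2 filters on dim probe sets. No called difference changed sign. Of the 18 calls, 11 kept direction and call in every alternative and 7 lost the call in at least 1. Without the probe sets under the median of all, 2671 of 4370 were called for TI against TII and 2993 of 4370 for TI against cultured cells. In the main fit these were 4783 and 5235 of 8740. At an adjusted p under 0.01, a stricter limit by construction, 3 of the 14 member probe sets were called in culture, beside 2202 of all 8740.

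Differences that had not been called changed sign as follows, and the cause was not tested. Foxj1 for TI against cultured cells stood at -0.053 with quantile normalization, -0.068 with matched spread and -0.011 with array weights. Cebpd rc_AA946292_at for the same comparison stood at -0.0081 with median centring. With the replicate block, the differences in culture were 0.0082 for Gata6 L22760_at, 0.013 for Cebpa rc_AI236300_at and -0.059 for Cebpb X60769mRNA_at. Leaving out each array gave ranges in culture of -0.0725 to 0.0405 for Cebpa rc_AI236300_at, -0.138 to 0.0398 for Gata6 L22760_at and -0.165 to 0.421 for Cebpb X60769mRNA_at. The ranges were -0.0196 to 0.117 for Gata6 L22760_at in TI against TII and -0.0337 to 0.0953 for Cebpd rc_AA946292_at in TI against cultured cells.

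Leaving out each array gave 3944 to 4986, 2491 to 3212 and 4543 to 5468 called probe sets in the 3 comparisons, and 5 to 7, 4 to 6 and 4 to 6 called members. The sources used here do not say whether arrays of the same replicate number were paired. Deviations from the group means correlated at -0.203 to 0.28 over 10 pairs of the same number and at -0.266 to 0.225 over 30 pairs of different numbers. These ranges overlap and rest on few arrays, so they cannot decide whether the arrays were paired. With the replicate block, 4787, 2750 and 4754 probe sets and 9, 6 and 6 members were called, among them Cebpb as lower in TI than TII (adjusted p = 0.041 and 0.0282).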

Other observations

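Markers of other cells in the lung are given below by the number called. Of all probe sets tested, 34.3% were called higher and 20.4% lower in TI than in TII. In culture these shares were 19.1% higher and 14.3% lower, and the counts of several lists lie near them. Of 18 fibroblast and smooth muscle genes, 10 were higher and 0 lower in fresh TI than in fresh TII cells, with a median of 0.26 beside 0.11 over all genes, and 5 rose and 2 fell in culture. The collagen gene Col3a1 was higher in TI by 2.52 ± 0.47 (adjusted p = 0.000772), and the elastic fibre gene Fbln5 by 2.33 ± 0.11 (adjusted p = 3.86e-09). In culture the actin-binding protein gene Tagln rose by 5.03 ± 0.12 (adjusted p = 1.09e-11) and Fbln5 by 3.18 ± 0.12 (adjusted p = 4.72e-10).

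Of 12 macrophage and leukocyte genes, 4 were higher and 1 lower in TI than in TII. Coro1a, an actin regulator of leukocytes, was higher in TI by 0.97 ± 0.26 (adjusted p = 0.00752). Of 10 endothelial genes, 5 were higher and 1 lower in TI, and 1 rose and 1 fell in culture. The lower one was Edn1, the peptide endothelin 1, at -1.71 ± 0.18 (adjusted p = 6.62e-06), which rose in culture by 1.49 ± 0.19 (adjusted p = 4.28e-05). Of 3 mesothelial genes, 2 were higher in TI and 1 fell in culture. Of 4 red blood cell genes, 2 were lower and 1 higher in TI, and 3 fell in culture, among them Hbb, which fell by 3.48 ± 0.37 (adjusted p = 7.43e-06). Type I markers were higher in TI for 6 of 7 genes, and 4 rose and 1 fell in culture. Type II markers were lower in TI for 9 of 9 genes, and 8 fell and 1 rose in culture. Of 5 club and secretory airway genes, 3 were lower and 2 higher in TI, and 3 fell in culture.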
